A study of Caenorhabditis elegans with 8 samples.

Results

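The genes described here encode the proteins of the cytosolic ribosome in the nematode Caenorhabditis elegans. They were taken by name: every row of the deposited table whose sequence name carries a WormBase symbol made of rpl or rps and a number. This gave 73 of 21774 genes, 30 of them rps genes (small subunit) and 43 rpl genes (large subunit). The annotation holds 78 such symbols, and rpl-20, rpl-23, rpl-41.1, rpl-41.2 and rps-24 are not analysed here. Names were matched to the WBcel235 annotation, and positions are not given because the build behind the values is not stated.

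The series follows the oocyte-to-embryo transition in polyadenylated RNA from oocytes, sperm, 1-cell embryos and 2-cell embryos, with 2 libraries in each of the 4 groups. Every library is labelled as strain TX189(OMA-1::GFP) kept at 24 degrees C, but the protocol describes oocytes of N2 wild-type hermaphrodites collected by mouth pipette and sperm from males with the fog-2(q71) mutation, treated with pronase to activate them. Flow sorting supplied the 1-cell embryos. How the 2-cell embryos were obtained is not described. Strain and method therefore cannot be told apart from stage, and nothing says that the 2 libraries of a group came from separate cultures, so p-values measure the spread between libraries, which may be technical.

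A ribosome holds a single copy of most of its proteins, bound to ribosomal RNA in a small subunit that reads the message and a large subunit that joins amino acids. Their genes are among the most strongly transcribed of a growing cell, and the nematode oocyte is loaded with ribosomes on which the embryo lives for much of its development. Spermatids of this worm, in contrast, leave their ribosomes behind in the residual body at the end of meiosis. The messages are short, with a median annotated length of 542 nucleotides (236 to 1334), and RNA was broken to about 250 nucleotides before the libraries were made. Levels below are RPKM as deposited, reads scaled to transcript length and sequencing depth, a measure per length whose value for the shortest messages is the least certain. RPKM are relative to all RNA of a library, and in such bulk samples fewer cells of a type and less RNA per cell cannot be told apart.

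Values used in each fit were log2(RPKM + 1), a scale that understates the changes of low genes. Differences were tested with limma over the 11935 genes that reached 1 RPKM in 2 or more libraries, among them all 73 ribosomal protein genes. A gene counts as changed at a Benjamini-Hochberg adjusted p under 0.05 and an absolute log2 difference of at least 1. The depth of the libraries is not stated. The commonest step between low values, if it is 1 read, corresponds to 1.76e+07 to 7.0e+07 reads in embryo and sperm libraries, and the oocyte columns show no such step. Genes listed at 0 made up 2.48% and 2.93% of the oocyte columns, 26.4% to 29.4% of the embryo columns and 18.8% and 12.7% of the sperm columns, and the part of this in the comparisons with oocytes was not tested. By stage, values are given with replicate 1 first and replicate 2 second. Of 12 oocyte markers, which summed to 21782 and 21030 RPKM in oocytes, 10 were higher in both oocyte libraries than in sperm. The other markers, perm-2 (3.38 and 2.83 in oocytes, 63.4 and 5.21 in sperm) and perm-4 (3.81 and 3.20, 82.2 and 4.01), were higher in sperm. The sperm markers summed to 50956 and 55610 RPKM in sperm against 8.77 and 1.34 in oocytes.

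Ribosomal protein messages took their largest share of the transcriptome in sperm. In oocytes they made up 2.15% and 1.62% of the summed RPKM in replicates 1 and 2. The 1-cell embryos had 2.97% and 3.30%, and the 2-cell embryos 3.38% and 2.96%. In sperm the share was 15.5% and 7.51%. The 2 sperm libraries lay above the other 6, and the 4 embryo libraries lay between oocytes and sperm without overlap. The group means were 1.89% ± 0.38 (oocyte; SD, n = 2), 3.14% ± 0.23 (1-cell), 3.17% ± 0.30 (2-cell) and 11.5% ± 5.64 (sperm).

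**Figure D1:**
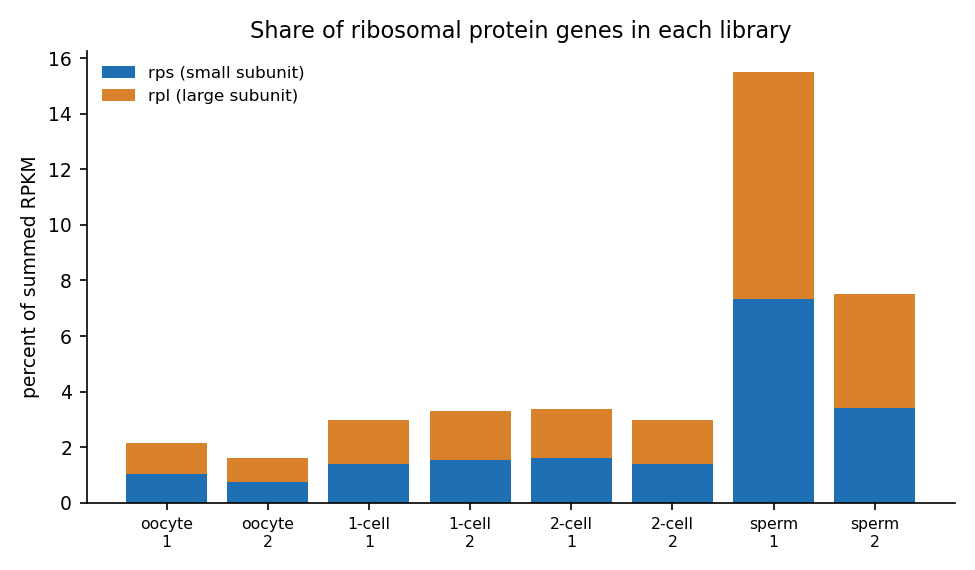
Share of the summed RPKM of each library (vertical axis, percent) held by the rps genes (blue) and the rpl genes (orange). Bars of the 2 sperm libraries reach 15.5% and 7.51%, and those of the other 6 libraries stay between 1.62% and 3.38%.

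Small and large subunit genes kept similar proportions in every library. The summed RPKM of the 30 rps genes relative to that of the 43 rpl genes was 0.949 and 0.864 (oocyte), 0.895 and 0.887 (1-cell), 0.902 and 0.878 (2-cell) and 0.901 and 0.840 (sperm). The ratios of the 2 libraries of oocytes spanned nearly the range seen over all 8. By single genes, the median of the 73 was 195 and 134 (oocyte), 316 and 326 (1-cell), 355 and 242 (2-cell) and 2055 and 1030 (sperm) RPKM. In sperm, 65 and 49 of the 73 genes stood among the 200 highest genes of the library, while in oocytes 2 and 1 did, and in embryos 6 to 9.

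**Figure D2:**
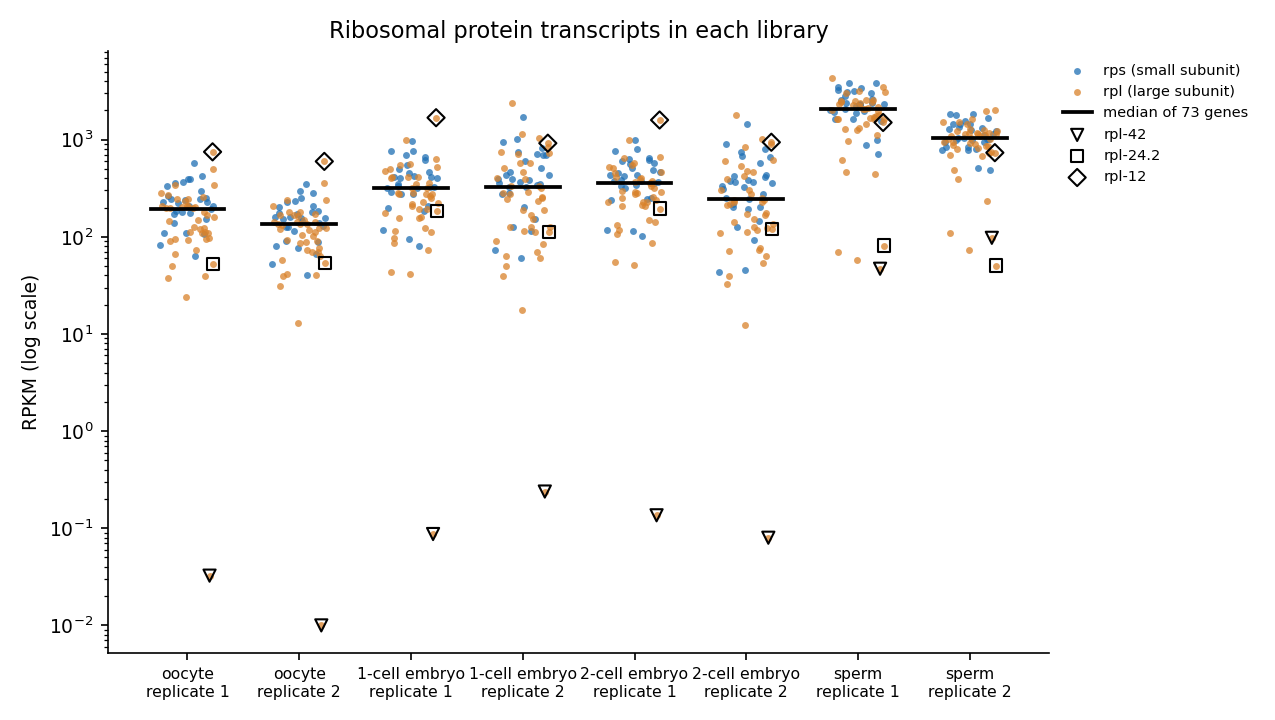
RPKM on a log axis of the 73 ribosomal protein genes in each of the 8 libraries, with rps genes in blue, rpl genes in orange and a bar at the median. The medians of sperm (2055 and 1030) lie above those of the other libraries. Outlined are rpl-42, which reached 1 RPKM in sperm alone, and rpl-24.2 and rpl-12, which were not called higher in sperm than in oocytes.

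The genes with the highest mean over all libraries were rps-23, rpl-10, rps-25, rpl-12 and rpl-29. For rps-23 (F28D1.7), a protein of the decoding centre, the values were 390 and 296 (oocyte), 962 and 1721 (1-cell), 994 and 1457 (2-cell) and 2272 and 1442 (sperm) RPKM. For rpl-10 (F10B5.1), a protein near the peptidyl transferase centre that joins the large subunit late, they were 500 and 362, 629 and 838, 658 and 892, and 3505 and 2036 RPKM in the same order. Oocytes were lowest for both genes, and the sperm values of rps-23 overlapped those of embryos while those of rpl-10 did not. Another small subunit gene, rps-25 (K02B2.5), had 264 and 177 (oocyte), 764 and 954 (1-cell), 770 and 902 (2-cell) and 3449 and 1826 (sperm) RPKM. The lowest means were those of rpl-19, rpl-24.2, rpl-11.2, rpl-25.1 and rpl-42, and the message of rpl-19 (C09D4.5) had 39.8 and 40.8 (oocyte), 73.5 and 59.9 (1-cell), 85.8 and 54.2 (2-cell) and 438 and 234.8 (sperm) RPKM. Across the 73 genes, which share libraries and length scaling, the order of levels was similar between the embryo stages (Spearman's rho 0.986), less so between oocytes and sperm (0.595), and least between 1-cell embryos and sperm (0.213).

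Sperm were compared with oocytes and with 1-cell embryos, which asks how the ribosomal protein messages of the male gamete compare with those of the female gamete and of the zygote. Against oocytes 71 of 73 genes were higher and 0 were lower, while 36.7% of all genes tested were called higher and 24.6% lower. All 30 rps genes and 41 of 43 rpl genes were called. The median difference was 3.24 log2 for the 73 genes and 0.16 over all genes tested, with medians of 3.23 for rps and 3.34 for rpl genes. The lowest sperm library lay above the highest oocyte library for 71 of the 73 genes, as for 46.6% of all genes tested. One of the 71, rpl-42, passed the filter on low values only through its sperm libraries and had to differ.

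Small subunit members gave the following values. The message of rps-6 (Y71A12B.1), the protein phosphorylated by S6 kinase, stood at 110 and 75.9 (oocyte), 93.9 and 60.9 (1-cell), 114 and 45.8 (2-cell) and 2211 and 832 (sperm) RPKM. Its sperm libraries were above all others, and the other stages overlapped one another. The difference was 3.88 log2 (SE 0.60, limma adjusted p = 0.000723) from oocytes and 4.15 (SE 0.60, adjusted p = 0.000430) from 1-cell embryos. For rps-22 (F53A3.3; rps-15A in RefSeq) the values were 82.9 and 52.0 (oocyte), 119 and 73.9 (1-cell), 117 and 43.4 (2-cell) and 2044 and 791 (sperm) RPKM. It again stood apart in sperm alone (4.25 log2 above oocytes, SE 0.62, adjusted p = 0.000537).

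Other small subunit genes moved by less in sperm. The message of rps-3 (C23G10.3), at the entry of the mRNA channel, had 356 and 229 RPKM in oocytes and 2364 and 1049 in sperm (2.46 log2, SE 0.47). That of rps-14 (F37C12.9) had 184 and 126 RPKM in oocytes and 3105 and 1350 in sperm (3.74 log2, SE 0.44), and that of rps-1 (F56F3.5; rps-3A in RefSeq) 205 and 155 against 2264 and 1257 (3.23 log2, SE 0.44). The 3 genes passed the test, with no overlap between the groups.

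Among large subunit genes, rpl-9 (R13A5.8) showed the widest change after rpl-42. Its values were 89.9 and 57.5 (oocyte), 87.3 and 50.5 (1-cell), 108 and 39.3 (2-cell) and 2486 and 954 (sperm) RPKM. Only sperm stood apart, by 4.40 log2 from oocytes (SE 0.63, adjusted p = 0.000485) and by 4.51 from 1-cell embryos (SE 0.63, adjusted p = 0.000365). The message of rpl-3 (F13B10.2), whose protein reaches the peptidyl transferase centre, had 109 and 101 (oocyte), 123 and 70.3 (1-cell), 149 and 77.6 (2-cell) and 2447 and 1246 (sperm) RPKM. It was 4.04 log2 (SE 0.49) above oocytes and 4.21 (SE 0.49) above 1-cell embryos. For rpl-2 (B0250.1; rpl-8 in RefSeq), also at that centre, the highest single value of the whole set was seen, 4300 RPKM in sperm replicate 1 with 1514 in replicate 2, against 282 and 205 in oocytes. The gene rpl-5 (F54C9.5), which carries 5S ribosomal RNA into the large subunit, had 342 and 236 RPKM in oocytes and 3121 and 1222 in sperm (2.78 log2, SE 0.58, adjusted p = 0.00348).

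Against 1-cell embryos 59 of the 73 genes were higher in sperm and 1 was lower, with 35.3% of all genes tested called higher and 33.2% lower. The median difference was 1.99 log2 against -0.18 over all genes tested. The sperm libraries lay above both 1-cell libraries for 68 genes, and for 40.3% of all genes tested. The 13 genes not called included the short messages rpl-29, rpl-37, rpl-38, rpl-39, rps-28 and rps-29. For rpl-39 (C26F1.9), whose protein lines the exit tunnel, the values were 192 and 1045 RPKM in 1-cell embryos and 1623 and 1962 in sperm (1.99 log2, SE 0.80, adjusted p = 0.0545).

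The change in sperm did not follow transcript length when measured from oocytes, and did when measured from 1-cell embryos. Leaving out rpl-42 and rpl-24.2, Pearson's r across 71 genes, which are not independent replicates, was 0.005 between the sperm-oocyte difference and log2 length and 0.633 for sperm against 1-cell embryos. Of the 31 genes of up to 500 nucleotides all 31 were higher in sperm than in oocytes, while 54.9% of all genes tested of that length were called higher. Of the 39 genes above 500 and up to 1000 nucleotides 37 were higher, with 42.2% of all genes tested of that length. Against 1-cell embryos the counts were 19 of 31 (49.5% of all genes of that length) and 37 of 39 (38.5%). With the length trend of each library removed, 58 genes were called higher against oocytes, and 47 against 1-cell embryos. Over all genes tested 31.4% and 33.2% were then called higher. Against 1-cell embryos 2 genes, rpl-24.2 and rps-29, were called lower in this setting, against 34.7% of all genes tested.

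**Figure D3:**
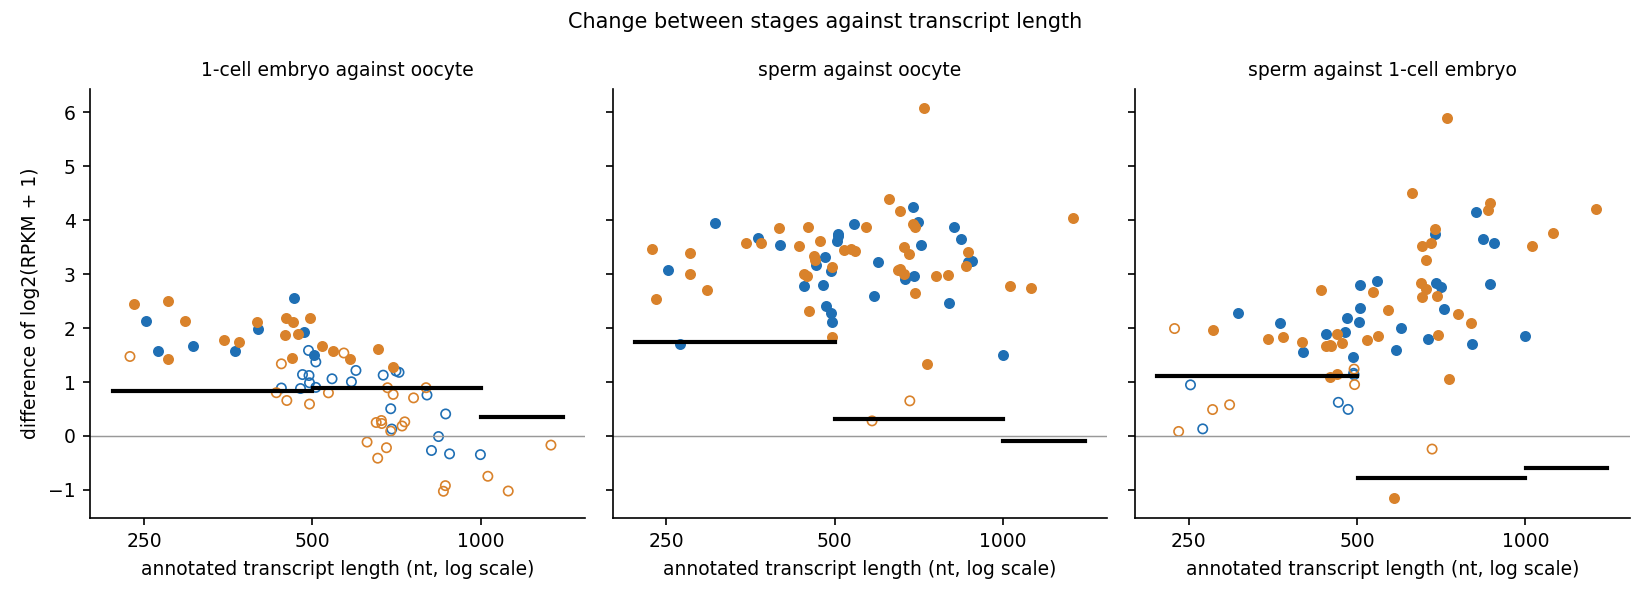
Difference of log2(RPKM + 1) between stages for each ribosomal protein gene (vertical axis) against annotated transcript length (log axis), with rps genes in blue and rpl genes in orange. Filled points were called by limma, open points were not, and black lines give the median of all genes tested in each length class. In the left panel short genes are higher in 1-cell embryos and long ones are not (r -0.768), while nearly all points of the middle panel lie above 1.

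The sperm libraries differed from each other in these genes and in markers of other cells. Of the 73 genes 67 were lower in sperm replicate 2 than in replicate 1, by a median of 0.96 log2, while the median over all genes tested was -0.02. Body wall muscle markers, 6 of 6 above 1 RPKM in a sperm library, summed to 2514 and 3845 RPKM in replicates 1 and 2, against 35.3 and 22.9 in oocytes. Intestine and yolk markers (8 of 10 above 1 RPKM) summed to 664 and 103 RPKM, against 5.91 and 7.90 in oocytes. Somatic gonad markers (4 of 5) reached a sum of 64.2 RPKM in replicate 2, and oocyte markers (12 of 12) summed to 1104 and 241. None of these markers was at 0 in sperm. The part of such cells in the sperm values was not tested. Without sperm replicate 1, which had the higher ribosomal protein share, 63 genes were higher than in oocytes and 49 higher than in 1-cell embryos. Without replicate 2 the counts were 67 and 60. Over all genes tested the shares called higher were 35.7% and 34.2% without replicate 1, and 33.7% and 33.3% without replicate 2.

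Some messages stood apart from the set in sperm: rpl-24.2 and rpl-12 were not called higher than in oocytes, and rpl-42 was near 0 outside sperm. The gene rpl-24.2 (C03D6.8) has the RefSeq symbol rsl-24D1. Its yeast relative Rlp24 holds the place of the ribosomal protein Rpl24 in the maturing large subunit and leaves before it is finished. It had 52.1 and 53.4 (oocyte), 184 and 113 (1-cell), 195 and 121 (2-cell) and 81.4 and 50.6 (sperm) RPKM. Sperm overlapped oocytes (0.28 log2, SE 0.42, limma adjusted p = 0.584) and lay below both 1-cell libraries (-1.16 log2, SE 0.42, adjusted p = 0.0355). The limma call ended without the filter on low values, with median-of-ratios scaling, with quantile normalization, when the fit held just sperm and 1-cell embryos, and without either oocyte library, 1-cell replicate 1 or sperm replicate 2. The difference from oocytes turned negative under a common sum (-0.29), median-of-ratios scaling, a removed length trend and without sperm replicate 1.

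The message of rpl-12 (JC8.3), a protein at the base of the stalk where elongation factors dock, was the highest of the set in both oocyte libraries. It had 749 and 597 (oocyte), 1683 and 920 (1-cell), 1593 and 941 (2-cell) and 1503 and 735 (sperm) RPKM. Sperm overlapped all other stages (0.65 log2 from oocytes, SE 0.50, adjusted p = 0.286), so a gene at the top of the set in oocytes stood below the set's median in sperm. With quantile normalization the difference from oocytes was -0.36, and it was also below 0 with the length trend removed.

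The gene called rpl-42 (C09H10.1) reached 1 RPKM in the sperm libraries alone. It had 0.0325 and 0.0100 (oocyte), 0.0872 and 0.239 (1-cell), 0.136 and 0.0799 (2-cell) and 46.9 and 97.6 (sperm) RPKM. No fold is given because its other values are near 0. It was also higher in sperm replicate 2 than in replicate 1, the reverse of most of the set. Its place among ribosomal protein genes rests on its symbol.

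Some numbers are held by a pair of genes, and in each pair the dominant message in sperm was also dominant in the other stages. The 2 genes for rpl-11, a partner of rpl-5 in the particle of 5S ribosomal RNA, held unequal shares in every library. The message of rpl-11.1 (T22F3.4) had 112 and 105 (oocyte), 280 and 393 (1-cell), 284 and 306 (2-cell) and 2381 and 1637 (sperm) RPKM. For rpl-11.2 (F07D10.1) the values were 37.7 and 30.9 (oocyte), 43.2 and 39.1 (1-cell), 55.3 and 32.4 (2-cell) and 69.8 and 108 (sperm) RPKM. The share of rpl-11.1 in the sum of both was 74.8% and 77.3% (oocyte), 86.7% and 90.9% (1-cell), 83.7% and 90.4% (2-cell) and 97.2% and 93.8% (sperm). Oocytes lay below the embryos and the embryos below sperm without overlap.

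Both rpl-11 genes passed the test between sperm and oocytes, rpl-11.1 with a difference of 4.17 log2 (SE 0.34, adjusted p = 1.89e-05) and rpl-11.2 with 1.33 (SE 0.39, adjusted p = 0.0175). The call of rpl-11.2 ended with libraries scaled to a common sum, with median-of-ratios scaling and with the length trend removed, and without either oocyte library or sperm replicate 2. Between oocytes and 1-cell embryos rpl-11.1 rose by 1.60 log2 (SE 0.34, adjusted p = 0.0172), a call that ended under each of the 3 scalings and with the length trend removed. The share itself was not tested.

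The pair rpl-25.1 and rpl-25.2, named rpl-23A.1 and rpl-23A.2 in RefSeq, encodes a protein at the mouth of the exit tunnel. The message of rpl-25.2 (F52B5.6) had 202 and 166 (oocyte), 986 and 710 (1-cell), 983 and 535 (2-cell) and 2295 and 1144 (sperm) RPKM. That of rpl-25.1 (F55D10.2) had 23.8 and 13.0 (oocyte), 41.6 and 17.4 (1-cell), 51.3 and 12.3 (2-cell) and 57.6 and 73.8 (sperm) RPKM. The share of rpl-25.1 was 10.5% and 7.24% (oocyte), 4.05% and 2.40% (1-cell), 4.96% and 2.26% (2-cell) and 2.45% and 6.06% (sperm). Oocytes had the highest shares and the other stages overlapped. The rise of rpl-25.2 in 1-cell embryos was 2.19 log2 (SE 0.47, adjusted p = 0.0173), a call that ended without the filter on low values, with median-of-ratios or quantile scaling and with the length trend removed.

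For the pair rpl-24.1 (D1007.12) and rpl-24.2, the former had 94.5 and 92.9 (oocyte), 282 and 279 (1-cell), 298 and 228 (2-cell) and 1289 and 798 (sperm) RPKM. Both rose from oocytes to 1-cell embryos, rpl-24.1 by 1.57 log2 (SE 0.35, adjusted p = 0.0192) and rpl-24.2 by 1.44 (SE 0.42, adjusted p = 0.0424). These 2 calls ended under each of the 3 scalings and with the length trend removed, and that of rpl-24.2 also without the filter on low values. In sperm rpl-24.1 was 3.42 log2 above oocytes (SE 0.35, adjusted p = 6.79e-05), and its share of the pair was 94.1% and 94.0%, against 60.4% to 71.1% in the other 6 libraries. How the authors' counting divided reads that match both genes of a pair is not stated.

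**Figure D4:**
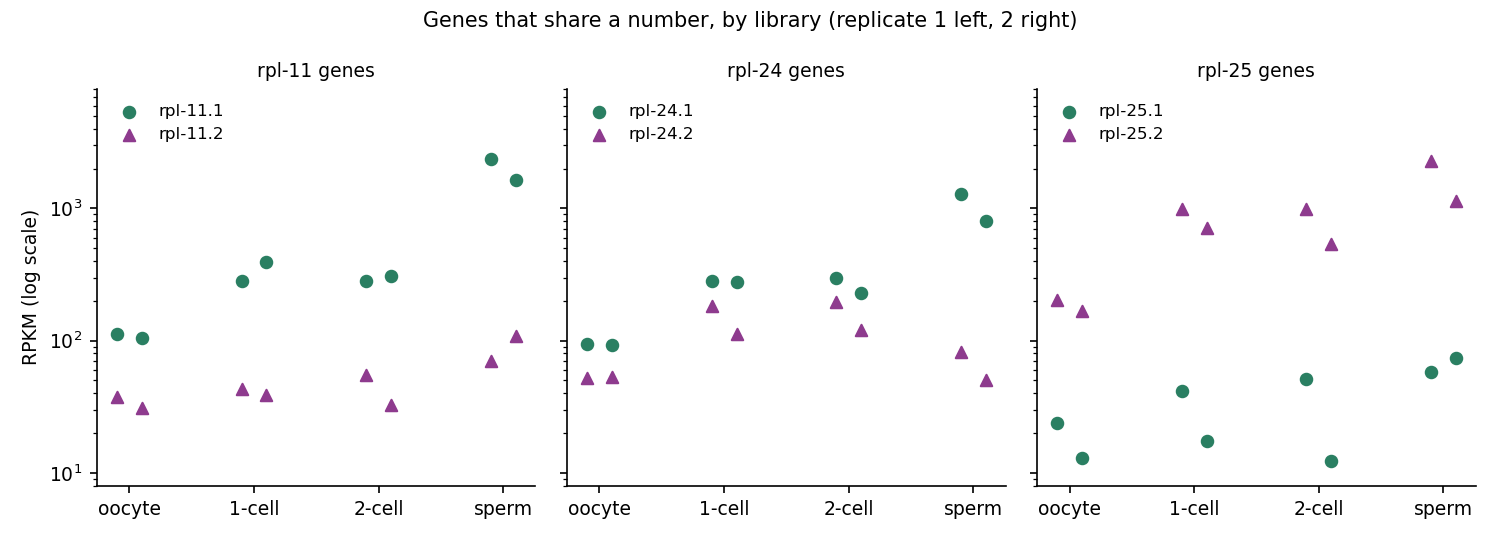
RPKM on a log axis of the genes that share a number, by stage, with replicate 1 drawn left and replicate 2 right. The gap between rpl-11.1 and rpl-11.2 widens from oocytes (112 against 37.7 in replicate 1) to sperm (2381 against 69.8), and rpl-24.2 is low in sperm while rpl-24.1 is high.

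Around fertilization, 1-cell embryos set against oocytes show how the ribosomal protein messages changed. In 1-cell embryos 26 of the 73 genes were higher and 0 lower, 8 of them rps and 18 rpl genes. Over all genes tested 17% were called higher and 5.92% lower. The median difference was 1.12 log2 against 0.35 over all genes. The 1-cell libraries lay above both oocyte libraries for 53 genes, and for 53.3% of all genes tested. With median-of-ratios scaling 2 genes were higher (rpl-37 and rps-17) and 2 lower (rpl-4 and rpl-7A), against 4.34% higher and 11.3% lower over all genes tested, and the median difference fell to 0.36 with 0.03 over all genes.

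The difference fell with transcript length within the set. Pearson's r between the difference and log2 length was -0.768 over the 73 genes, with a slope of -1.27 log2 per doubling of length. Of the 31 genes of up to 500 nucleotides 20 were higher (27.99% of all genes tested of that length), with a median of 1.66 log2 against 0.83 over all genes of that length. Of the 39 genes above 500 and up to 1000 nucleotides 6 were higher (32.5% of all genes of that length), with medians of 0.76 and 0.88. The 3 longer genes, rpl-3, rpl-4 and rpl-5, were not called and had differences of -0.17, -1.02 and -0.75. With the length trend of each library removed, 3 genes remained called, rpl-36.A, rpl-37 and rps-17, against 5.49% of all genes tested, and the median of the set was 0.20 log2.

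Short messages showed the clearest rise. The small subunit gene rps-17 (T08B2.10) had 179 and 116 (oocyte), 699 and 1028 (1-cell), 635 and 749 (2-cell) and 1629 and 1047 (sperm) RPKM. The oocyte libraries were the lowest, and the 2.55 log2 rise into 1-cell embryos (SE 0.40, adjusted p = 0.00849) was called under the 3 other scalings and after removal of the length trend, but not without either oocyte library. For rpl-37 (C54C6.1; rpl-37.2 in RefSeq) the values were 66.9 and 41.0 (oocyte), 278 and 332 (1-cell), 251 and 241 (2-cell) and 468 and 389 (sperm) RPKM. This gene too kept its call (2.51 log2, SE 0.35, adjusted p = 0.00702) under those settings and lost it without either oocyte library. The message of rpl-36.A (C09H10.2) had 91.8 and 86.1 (oocyte) and 321 and 467 (1-cell) RPKM.

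Other short messages rose too, some with a wide gap between the 1-cell libraries. The message of rpl-29 (B0513.3) had 243 and 181 (oocyte) but 551 and 2410 (1-cell) and 642 and 1806 (2-cell) RPKM (2.45 log2 for 1-cell embryos, SE 0.75, adjusted p = 0.0499). Of rpl-38 (C06B8.8) the 1-cell libraries had 565 and 1153 RPKM against 206 and 164 in oocytes. The message of rpl-14 (C04F12.4) had 125 and 89.1 (oocyte) and 412 and 569 (1-cell) RPKM (2.19 log2, SE 0.39). The call of rpl-29 ended under each scaling and with the length trend removed, and those of rpl-38 and rpl-14 ended with median-of-ratios scaling and with the length trend removed.

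Some long messages of the large subunit had lower values in 1-cell embryos without passing the test. For rpl-4 (B0041.4) oocytes had 338 and 242 RPKM and 1-cell embryos 155 and 127 (-1.02 log2, SE 0.48, adjusted p = 0.161). For rpl-7A (Y24D9A.4) the values were 200 and 133 against 98.2 and 64.2 RPKM (-1.03 log2, SE 0.57, adjusted p = 0.230). With rpl-2 and rpl-5 these were the 4 genes whose 1-cell libraries both lay below the oocyte libraries. The share of all genes tested that lay below in this way is not given here, so the count has no baseline. The 26 calls depended on single libraries, while the median difference of the set stayed between 0.80 and 1.28 log2 when any library was left out. Over all genes tested that median was then 0.26 to 0.37. Without 1-cell replicate 2 there were 7 higher genes, against 12.1% of all genes tested. Without 1-cell replicate 1 there were 17, against 10.3%. Without either oocyte library there were 0, where over all genes tested 0 were also called higher.

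Between 2-cell and 1-cell embryos no ribosomal protein gene passed the test. The limma calls were 0 higher and 0 lower, against 0.0168% and 0% of all genes tested, and at an unadjusted p under 0.05 there were 0 and 0. The median difference was -0.03 log2, with a range from -0.42 to 0.37 and an SD across genes of 0.17. SEs ran from 0.33 (rpl-36.A) to 0.80 (rpl-39), so the test had little power for differences of this size. Same-numbered libraries of both embryo stages deviated together (r 0.943 over the set), and the unpaired fit left this shared gap in its error. The absence of calls therefore does not show that levels were unchanged. The 2-cell libraries lay below both 1-cell libraries for 2 genes (rps-12 and rpl-37) and above them for 0. The shares of all genes tested that did so are not given here, so these counts have no baseline. The lowest difference was that of rpl-26 (F28C6.7), with 277 and 191 RPKM in 1-cell and 241 and 123 in 2-cell embryos, and the highest that of rpl-39, with 192 and 1045 against 332 and 1012.

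In 2-cell embryos 23 genes were higher than in oocytes and 0 lower, against 16.4% and 5.17% of all genes tested, with a median of 1.01 log2 against 0.42. The comparison shares its oocyte libraries with that of 1-cell embryos. Among the called genes with the widest rise were rps-17 (2.25 log2, SE 0.40), rpl-36.A (2.23, SE 0.33), rpl-37 (2.21, SE 0.35) and rps-28 (2.18, SE 0.57), all up to 500 nucleotides long. With median-of-ratios scaling 0 were higher and 1 lower, against 3.03% and 10.7% of all genes tested. With the length trend removed 2 were higher, against 4.79% of all genes tested. Without 2-cell replicate 1 there were 5 higher genes, against 4.99% of all genes tested. There were 0 without 2-cell replicate 2 (1.55% of all genes) and 0 without either oocyte library (0% of all genes).

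The 2 libraries of a stage differed in these genes. In 2-cell embryos 55 of the 73 genes were lower in replicate 2 (57.8% of all genes tested), and in 1-cell embryos 42 (55.3% of all genes tested). The gap, replicate 2 minus replicate 1, fell with length, with a Pearson's r across the 73 genes of -0.621 (1-cell), -0.489 (2-cell) and -0.450 (sperm). The widest gap was that of rpl-39 in 1-cell embryos (2.44 log2). In oocytes 70 of 73 genes were lower in replicate 2, by a median of 0.49 log2, with little relation to length (r 0.198), while 45.9% of all genes tested were lower there.

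**Figure D5:**
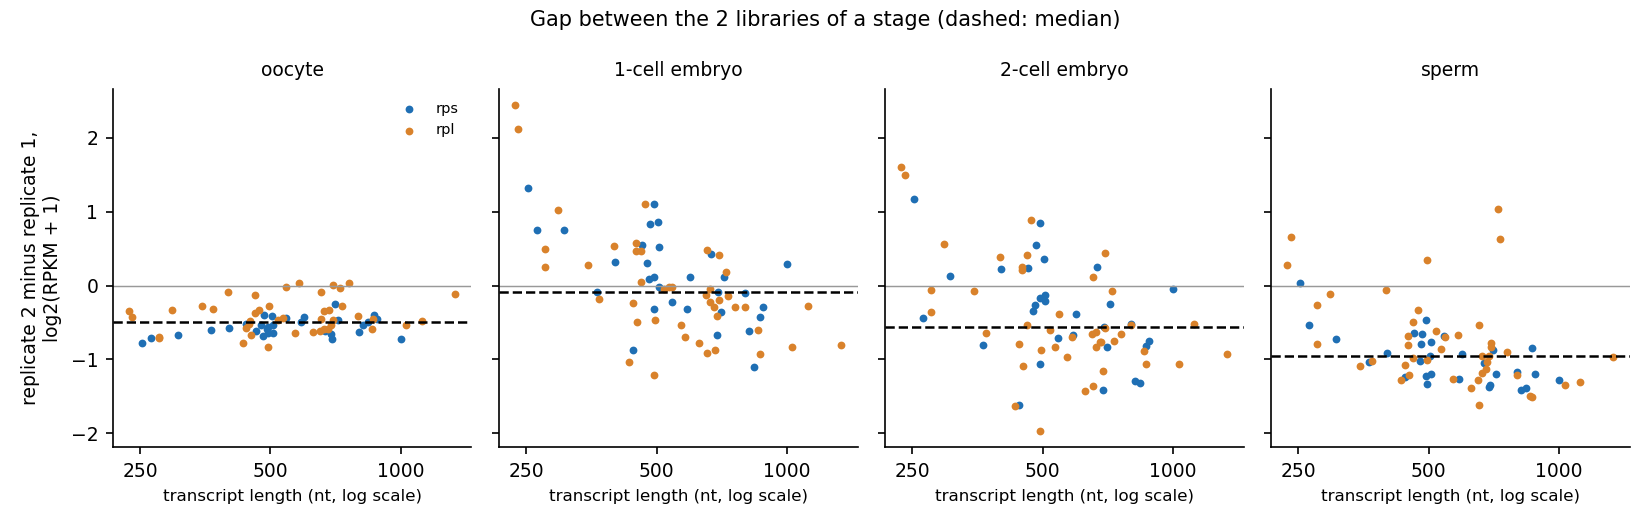
Replicate 2 minus replicate 1 on the log2(RPKM + 1) scale for each ribosomal protein gene against transcript length (log axis), by stage, with the median as a dashed line. Oocyte gaps cluster near -0.49 at all lengths, and in embryos the gaps fall with length.

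Related genes were counted beside the set. The 5 genes of the P stalk and the ubiquitin fusions (rla-0, rla-1, rla-2, ubl-1 and ubq-2) are also parts of the ribosome. All 5 were higher in sperm than in oocytes, with a median of 2.97 log2. Over all genes tested 36.7% were called higher, and 54.9% of those up to 500 nucleotides long. Among the 5, ubl-1 (H06I04.4), which fuses a ubiquitin-like domain to a small subunit protein, had 87.3 and 58.9 RPKM in oocytes and 1221 and 663 in sperm (3.63 log2). The stalk base gene rla-0 had 293 and 224 RPKM in oocytes and 2913 and 1462 in sperm (3.01 log2). The scaffold gene rack-1 of the small subunit had 223 and 147 RPKM in oocytes and 2483 and 855 in sperm (3.00 log2). In 1-cell embryos 1 of the 5, ubq-2, was higher than in oocytes (1.39 log2), a call that ended under each scaling.

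The 67 mitochondrial ribosomal protein genes, with a median length of 763 nucleotides, were not higher in sperm in any case. Against oocytes 0 of them were higher and 25 lower, with a median of -0.72 log2, against 36.7% and 24.6% of all genes tested. Against 1-cell embryos 0 were higher and 56 lower, with a median of -2.43 log2, against 35.3% and 33.2% of all genes. From oocytes to 1-cell embryos 40 of the 67 were higher and 0 lower. Of all genes tested 17% were higher, and 32.5% of those above 500 and up to 1000 nucleotides. Without either oocyte library 0 of all genes tested were called higher in this comparison. The difference between both kinds of ribosomal protein genes was not tested.

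Of 7 elongation and translation factor genes, 2 were higher and 0 lower in sperm than in oocytes, and 1 was higher and 2 lower in 1-cell embryos. Over all genes tested 36.7% and 24.6% were called in the former comparison and 17% and 5.92% in the latter. Those lower in 1-cell embryos were eef-1A.1, which delivers aminoacyl-tRNA (8119 and 5445 against 1844 and 1380 RPKM, -2.06 log2), and eef-2, which moves the ribosome along (795 and 810 against 277 and 207, -1.74 log2). The factor gene iff-1, of the eIF5A family, was higher there, with 415 and 345 (oocyte) and 1716 and 2040 (1-cell) RPKM (2.30 log2). The calls of eef-1A.1 and eef-2 ended without the filter on low values, that of eef-1A.1 also with quantile normalization and with just the compared groups, and that of iff-1 with the length trend removed. All 3 also ended without either oocyte library. Of 18 genes listed for ribosome biogenesis, 5 were higher and 4 lower in sperm than in oocytes, with a median of -0.06 log2. Over all genes tested 36.7% and 24.6% were called. The list, and its lower genes, include ebp-2 (-2.27 log2), which encodes a microtubule end-binding protein and does not belong to that class. Also among the lower ones was fib-1, the methyltransferase fibrillarin of the nucleolus, with 1232 and 942 RPKM in oocytes and 357 and 177 in sperm (-2.09 log2).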

How the data were processed

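Polyadenylated RNA of 8 libraries was sequenced. The authors deposited RPKM values per gene and library, and per the submitters' processing notes BWA was used. Its version, the genome build, the annotation, the counting and the total behind RPKM are not given in the sources used here, and counting intervals were not computed. Libraries were grouped by their titles. Sequence names were matched to WBcel235 (18746 matched, 3028 not), and length is that of the longest annotated transcript. The tests were limma 3.58.1 in R 4.3.3 on log2(RPKM + 1), with all 4 groups in one model, a variance trend, two-sided, and Benjamini-Hochberg adjustment over 11935 genes within each of 5 comparisons. The procedure was tested on simulated data with independent noise of equal spread for every gene and library. That simulation held no gaps shared between libraries, such as those seen here, so it does not cover them. Alternatives were other pseudocounts, filters and scalings, a removed length trend (robust lowess per library, span 0.3), a replicate block, only the compared groups, and each library left out. Genes, lists and tests were chosen with earlier results of these data known. Named genes were the most changed called genes without overlap (4 in each direction), the 2 highest and lowest differences, the 5 highest and lowest levels, genes sharing a number, a panel, and up to 3 called genes of each related list. Exceptions and not-called genes named beside counts (rps-12, rps-29) were chosen after their values were seen.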

Additional observations from a re-analysis of the deposited data

How the results depend on the processing

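Within the set, calls were kept most often in the sperm comparisons. Of 71 genes higher in sperm than in oocytes, 58 were called under each alternative and without each library, and of 59 higher than in 1-cell embryos 42 were. The share of all genes tested that kept a call in this way is not given here, so these counts have no baseline. The counts for embryos against oocytes depended on scaling and filtering. For 1-cell embryos, 26 calls became 8 without the filter on low values, 10 with libraries scaled to a common sum, 4 with median-of-ratios scaling, 9 (quantile) and 3 after removal of the length trend, and without single libraries they ranged from 0 to 25. For 2-cell embryos, 23 calls became 5, 8, 1, 8 and 2 under the same settings, and ranged from 0 to 24. These totals hold both directions. With median-of-ratios scaling, 2 of the 4 calls in 1-cell embryos were higher and 2 lower. In 2-cell embryos 0 were higher, and the 1 call was lower. The lower genes were not among the calls of the main fit. Over all genes tested 11.3% (1-cell) and 10.7% (2-cell) were called lower with that scaling. Over all genes tested, those called higher in 1-cell embryos fell from 17% to 4.85%, 8.28%, 4.34%, 4.93% and 5.49% in the same order. In 2-cell embryos they fell from 16.4% to 4.18%, 8.76%, 3.03%, 4.32% and 4.79%. The cause was not tested. Scaling also moved the median of all genes, from 0.35 to 0.03 log2 (1-cell against oocyte) and from 0.16 to -0.62 (sperm against oocyte, quantile normalization), and relative to that median the set stood at 0.77 and 0.33 in the former and at 3.08 in the latter under either setting. The share of the set in oocytes was 2.35% with the length trend removed. For rpl-24.2 the sperm-oocyte difference turned to -0.29 (common sum), -0.14 (median of ratios) and -0.655 (length trend removed), and ranged from -0.0578 (without sperm replicate 1) to 0.62 when single libraries were left out. For rpl-12 it turned to -0.36 (quantile) and -0.0551 (length trend removed). Of 720 alternative values for 72 named gene results these 5 changed sign, and of 576 with a library left out 1 did. With the replicate block, 35, 0, 31, 71 and 62 genes were called higher in the 5 comparisons, and 1 lower in the last. Over all genes tested 20.5%, 0.0168%, 20.6%, 37.3% and 35.7% were then called higher, and 34.7% lower in the last. Each comparison has only 2 same-numbered pairs and nothing says that a number marks a shared culture, so the numbers were not treated as pairs. Deviations of same-numbered libraries over all genes tested had r of 0.877 between the embryo stages and -0.170 to 0.0905 in the other pairs of stages; over the 73 genes they had r of 0.943 between the embryo stages, 0.572 (1-cell and sperm), 0.535 (2-cell and sperm) and 0.0236 to 0.259 (pairs with oocytes).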

Other observations

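A pair of genes outside the set bear ribosomal protein symbols in RefSeq and only a sequence name in WormBase. Both behaved like short members of the set. W01D2.1 (rpl-37.1 in RefSeq) had 154 and 105 (oocyte), 452 and 540 (1-cell), 431 and 454 (2-cell) and 876 and 477 (sperm) RPKM. In limma's fit its log2 difference was 1.95 for 1-cell embryos against oocytes and 2.34 for sperm against oocytes, and it passed the test in both. Y37E3.8 (rpl-27A in RefSeq) had 146 and 93.6 (oocyte), 349 and 491 (1-cell), 324 and 429 (2-cell) and 1622 and 679 (sperm) RPKM, with log2 differences of 1.81 and 3.15 that also passed. These 2 genes were chosen after their values were seen.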
